A study of Mus musculus with 55 samples.

Results

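Polycomb repressive complex 2 (PRC2) is represented here by 10 genes: Eed, Suz12, Ezh1, Ezh2, Rbbp4, Rbbp7, Phf1, Mtf2, Phf19 and Jarid2. They were taken by name, through Ensembl identifiers matched to GENCODE symbols on the mouse build GRCm38, from 47937 genes counted in 16 bulk RNA-seq libraries of pancreatic islets. All 10 passed the filter on low counts. The study deleted Eed in β cells by crossing Eed flox/flox mice with RIP-cre mice, in which a rat insulin promoter drives Cre recombinase, and profiled whole islets of male C57B6/J mice at 8 and 25 weeks of age. The wild-type (WT) group had 3 libraries at each age, the heterozygous (HET) group 3 at 8 weeks and 2 at 25 weeks, and the Eed -/- (KO, or βEedKO) group 3 at 8 weeks and 2 at 25 weeks. WT and HET mice are not said to carry Cre, so an effect of the transgene cannot be told apart from an effect of the deletion. Each library was made from islets of 1 or 2 animals, except the 25-week KO libraries, which pooled islets of at least 4. The labels do not tie libraries to animals or litters, so p-values measure the spread between these libraries.

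PRC2 places methyl groups on lysine 27 of histone H3, and the trimethylated form, H3K27me3, marks genes kept silent by Polycomb. EZH1 and EZH2 are alternative catalytic subunits that need EED and SUZ12 to work, and EED also binds the finished mark. Accessory subunits divide PRC2 into classes: one carries a Polycomb-like protein (PHF1, MTF2 or PHF19), with EPOP as a further partner, and the other carries JARID2 with AEBP2.

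Total counts ranged from 4645393 to 22925359 per library. In 4 of the 8-week libraries (WT replicates 3 and 4, KO replicates 4 and 5) the summed level of 8 interferon-induced genes was 3266 to 4710 CPM (reads of a gene scaled to the size of the library), against 61.9 to 148 in the other 12 libraries. None of the HET libraries was among them. The summed level of 8 acinar genes reached 378194 CPM in 25-week KO replicate 2 and 208154 CPM in 25-week WT replicate 4, and spanned 11624 to 183311 CPM elsewhere. The islet label was checked on 8 β cell genes, whose summed level was 122324 to 218493 CPM except in the 25-week KO libraries, at 13874 and 17204 CPM. The part of these shifts in the results below was not tested, unless a value is given. In bulk islets, fewer cells of a type and less RNA per cell cannot be told apart.

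In wild-type islet chromatin, most of the 10 genes had an active start site. The deposited segmentation assigns each 200 bp bin of the autosomes to a chromatin state. The start sites of Eed, Ezh1, Ezh2, Suz12, Mtf2 and Rbbp4 lay in state A and those of Phf1 and Phf19 in state B, both active start-site states. Of 20445 counted protein-coding genes with a start-site state, 30.2% lay in state A and 13.8% in state B. Jarid2 lay in state L, a bivalent state in which H3K4me3 is high beside H3K27me3. Rbbp7 is on the X chromosome, which was not segmented. Within 1 kb of its start, Phf19 had 1200 bp of state L, 400 bp of state M (bivalent with high H3K27me3), 201 bp of bivalent state K, 200 bp of state B and none of state A. Eed by contrast had 1000 bp of state A and 818 bp of state B there. Polycomb-marked states covered 16.8% of the Phf19 gene body and at most 2.28% of that of any other autosomal member. The transcription elongation state G was the most frequent over the gene bodies of Eed (70.4%), Ezh1 (72.4%), Suz12 (68.3%), Rbbp4 (63.3%) and Mtf2 (43.4%). Over the other autosomal members a different state was the most frequent: E for Jarid2 (52.9%), F for Phf1 (43.4%), I for Phf19 (30.8%) and quiescent state X for Ezh2 (29.8%). State J followed in Ezh2, at 25.6%. Of protein-coding gene bodies 17.5% were assigned to state G and 3.61% to state X.

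**Figure D1:**
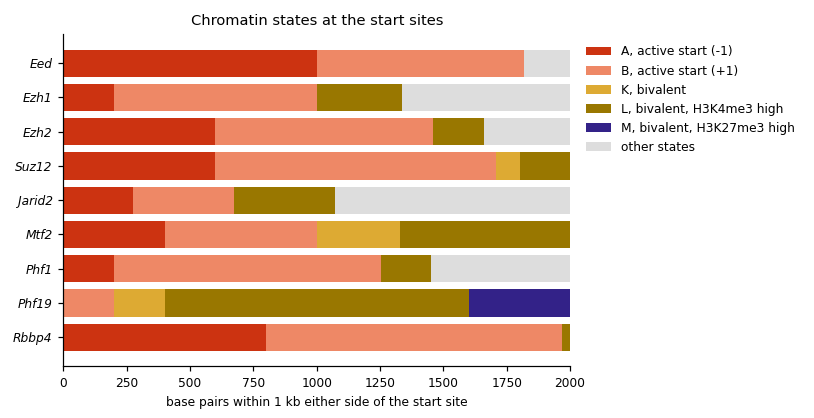
Stacked bars show base pairs of each chromatin state within 1 kb either side of the start site (x axis) for the 9 autosomal genes (y axis). Phf19 has 1200 bp of state L and no state A, while Eed has 1000 bp of state A.

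The 250 bases upstream of the RefSeq start of Eed, of both catalytic subunits and of Phf19 are shown, because these genes differ in the chromatin and the levels described here. They are from GRCm38.p6, on the strand of the gene, and the first base of a start lies just after the last base printed. RefSeq starts can differ from the GENCODE ones used for the states. All 10 genes matched, with 12 starts in all. Capitals mark a searched motif, on either strand: CCAAT, or its reverse complement, and the E2F words TTTGGCGC or TTTCCCGC or TTTGCCGC or TTTCGCGC, likewise on both strands.
Eed, chr7:89980977-89981226, minus strand: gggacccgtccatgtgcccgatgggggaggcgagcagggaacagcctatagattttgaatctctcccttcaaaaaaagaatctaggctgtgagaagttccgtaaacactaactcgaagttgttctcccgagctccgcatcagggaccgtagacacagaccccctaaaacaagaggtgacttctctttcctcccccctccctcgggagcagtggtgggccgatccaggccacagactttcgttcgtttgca
Ezh1, chr11:101226464-101226713, minus strand: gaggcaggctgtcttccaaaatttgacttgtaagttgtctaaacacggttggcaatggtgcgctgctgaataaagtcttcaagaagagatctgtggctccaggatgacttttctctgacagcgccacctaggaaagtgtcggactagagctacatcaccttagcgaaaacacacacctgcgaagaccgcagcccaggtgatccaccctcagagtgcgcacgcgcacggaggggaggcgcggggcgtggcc
Ezh2, chr6:47595031-47595280, minus strand: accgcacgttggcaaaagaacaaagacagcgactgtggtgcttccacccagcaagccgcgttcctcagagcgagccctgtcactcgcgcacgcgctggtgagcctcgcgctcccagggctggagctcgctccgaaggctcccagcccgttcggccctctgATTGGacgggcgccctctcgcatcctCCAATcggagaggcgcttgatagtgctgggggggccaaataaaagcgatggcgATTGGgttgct
Phf19, chr2:34913977-34914226, minus strand: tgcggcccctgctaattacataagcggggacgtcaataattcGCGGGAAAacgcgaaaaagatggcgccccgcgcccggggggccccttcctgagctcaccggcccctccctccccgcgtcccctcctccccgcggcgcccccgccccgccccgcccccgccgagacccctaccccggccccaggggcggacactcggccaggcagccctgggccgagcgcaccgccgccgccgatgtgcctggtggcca

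The Eed sequence holds 12 CpG dinucleotides, that of Ezh1 14, that of Ezh2 23 and that of Phf19 31, against a median of 6 over 32841 mouse promoters of the same length. Ezh2 holds 3 CCAAT words, a motif found in 33.9% of those promoters. Phf19 holds 1 E2F word, 200 bases before the start, on the strand opposite to the gene. Suz12 also holds an E2F word (211 bases before the start), and these words occur in 1.86% of all promoters. No E2F, CCAAT, ETS (CCGGAAG) or TATAAA word was found in the Eed and Ezh1 windows. ETS words occur in 6.91% of promoters and TATAAA in 12.4%. A match describes letters and is not a measured site.

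Eed, the targeted gene (ENSMUSG00000030619.9, chromosome 7, 89954654 to 89980983), followed the genotype. Positions of genes are from GENCODE on GRCm38, and each of the 10 is a protein-coding gene. At 8 weeks its level was 23.9, 33.1 and 31.2 CPM in the WT libraries, 17.2, 17.1 and 20.5 CPM in the HET libraries, and 14.9, 13.4 and 14.8 CPM in the KO libraries. The groups did not overlap. At 25 weeks the WT libraries had 28.3, 22.0 and 19.3 CPM, the HET libraries 16.3 and 16.9 CPM, and the KO libraries 15.6 and 14.2 CPM, again with no overlap. Mean levels were thus 29.4 ± 4.89 (SD, n = 3), 18.3 ± 1.94 (n = 3) and 14.4 ± 0.813 CPM (n = 3) in WT, HET and KO islets at 8 weeks. Over all 16 libraries log2 CPM rose by 0.42, or 1.34-fold, for each step from KO through HET to WT. A two-sided exact permutation test of this slope within age gave p = 1.13e-05, where the smallest possible was 2.83e-06. KO islets kept part of the Eed signal. Counts span the whole gene, including parts outside the deletion, and the whole islet, including cells without Cre.

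Eed was the 1 gene of the 10 that passed the test between KO and WT over both ages. Its mean log2 fold change was -0.86 (SE 0.16, edgeR adjusted p = 0.0110), a level 0.551 times that of WT, and all 5 KO libraries were below the 6 WT libraries. Of all 18685 genes tested, 7.62% were called in that comparison at an adjusted p under 0.05. At 8 weeks none of the 10 was called by edgeR, against 0.434% of all genes. Eed alone had an unadjusted edgeR p under 0.05, as did 7.87% of all genes, and DESeq2 called Eed among 393 of 18685 genes. In the fit that treats WT and KO replicate numbers as pairs, 0 of all genes were called at 8 weeks, against 81 without pairs. Only numbers 1 and 4 occurred in both WT and KO at that age. Without pairs the Eed log2 fold change was -1.04 (SE 0.22, edgeR adjusted p = 0.0881). At 25 weeks edgeR again called none, against 6.6% of all genes, and 2 of the 10 had an unadjusted p under 0.05, against 20.3% of all genes. DESeq2 called 1 of the 10, Phf1, among 2093 genes. The Eed value there was -0.69 (SE 0.25, edgeR adjusted p = 0.142). Scaling by library size alone ended the call over both ages (-0.66, edgeR adjusted p = 0.167). Leaving out the interferon-high libraries (-0.68), the acinar-rich 25-week libraries (-0.97) or 25-week KO replicate 3 (-0.82) also ended it. The interferon omission left only replicate 1 of WT and replicate 1 of KO at 8 weeks. Each of the other omissions left a single KO library at 25 weeks. Why these calls were lost was not tested. With library size alone 1196 of all genes were called over both ages, against 1424. With pairs, 817 genes were called over both ages, against 1424, and Eed was at -0.87 (edgeR adjusted p = 0.0498). The genotype slope passed the exact test in all 22 alternatives, those same omissions included.

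The median log2 fold change of the 10 genes between KO and WT was -0.21 at 8 weeks and -0.22 at 25 weeks, against 0.00 and 0.03 over all genes. The median absolute value was 0.25 at 8 weeks and 0.57 at 25 weeks, against 0.30 and 0.49 over all genes. At 8 weeks Eed alone had KO and WT libraries that did not overlap, as did 11.4% of all genes. At 25 weeks 8 of the 10 did not overlap: Ezh2 and Phf19 were higher and Eed, Ezh1, Suz12, Phf1, Rbbp4 and Rbbp7 lower in KO, and 40.6% of all genes did not overlap with these 2 and 3 libraries.

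**Figure D2:**
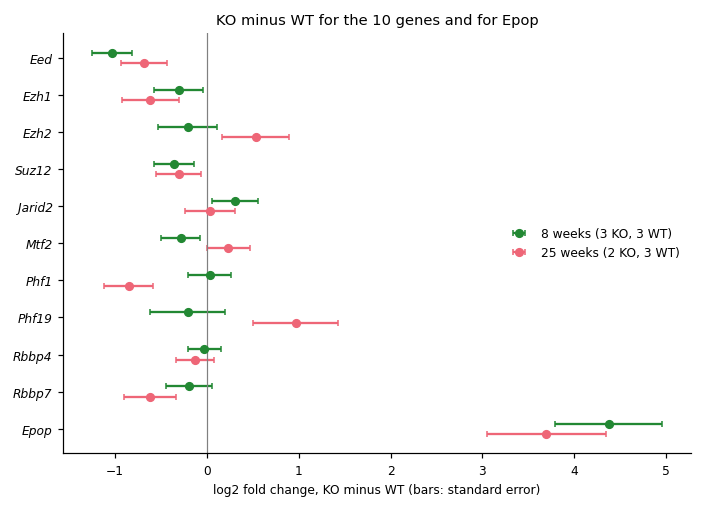
Points give the log2 fold change between KO and WT islets (x axis) for the 10 genes and for Epop (y axis) at 8 and 25 weeks, with bars of 1 standard error. Eed lies at -1.04 and -0.69, and Epop at 4.37 and 3.70.

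Among the other core subunits, Suz12, the scaffold of PRC2 (ENSMUSG00000017548.15, chromosome 11, 79993106 to 80034123), had 48.0, 72.0 and 73.0 CPM in 8-week WT libraries, 49.6, 48.9 and 49.0 CPM in HET and 40.6, 56.8 and 53.3 CPM in KO. The 25-week levels were 52.8, 54.3 and 52.7 CPM in WT, 49.0 and 54.0 CPM in HET, and 41.2 and 48.0 CPM in KO. KO and WT overlapped at 8 weeks and did not at 25 weeks. The log2 fold change was -0.36 at 8 weeks (SE 0.22, edgeR adjusted p = 0.782) and -0.31 at 25 weeks (SE 0.25, edgeR adjusted p = 0.551), and neither passed the test.

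Ezh1 and Ezh2 encode the catalytic subunits, EZH2 being the one associated with dividing cells and EZH1 with resting ones. Ezh1 (ENSMUSG00000006920.14, chromosome 11, 101191115 to 101226463) had 62.3, 36.7 and 43.3 CPM in 8-week WT, 62.9, 70.8 and 55.8 CPM in HET and 54.2, 31.6 and 28.9 CPM in KO. In 25-week islets Ezh1 had 52.3, 72.1 and 67.1 CPM in WT, 70.1 and 58.3 CPM in HET, and 45.1 and 41.5 CPM in KO, which lay below the other 5 libraries. The log2 fold change between KO and WT was -0.31 at 8 weeks (SE 0.27, edgeR adjusted p = 0.880) and -0.62 at 25 weeks (SE 0.31, edgeR adjusted p = 0.297). With the interferon-high libraries as a term in the fit, a choice made after seeing the data, the 25-week value passed (edgeR adjusted p = 0.0488).

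Ezh2 (ENSMUSG00000029687.16, chromosome 6, 47530139 to 47595341) was much lower, with 9.13, 6.28 and 4.40 CPM in 8-week WT, 4.39, 7.10 and 4.75 CPM in HET and 7.59, 4.87 and 4.59 CPM in KO. In 25-week islets Ezh2 had 3.92, 4.51 and 4.41 CPM in WT, 4.03 and 3.79 CPM in HET, and 6.32 and 6.58 CPM in KO. The 25-week KO libraries were thus above all WT and HET libraries of that age, on counts of 18 to 163 reads per library. The log2 fold change was -0.21 at 8 weeks (SE 0.32, edgeR adjusted p = 0.948) and 0.53 at 25 weeks (SE 0.36, edgeR adjusted p = 0.466), and neither passed the test.

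The ratio of Ezh1 to Ezh2 within each library, in reads per kilobase, does not depend on scaling between libraries. It was 6.12, 5.24 and 8.84 in 8-week WT, 12.9, 8.95 and 10.5 in HET and 6.41, 5.84 and 5.66 in KO. At 25 weeks it was 11.97, 14.3 and 13.7 in WT, 15.6 and 13.8 in HET, and 6.41 and 5.66 in KO. WT and KO ratios overlapped at 8 weeks, and at 25 weeks the KO libraries were below all others. Pooled over both ages, the log2 ratio was 0.58 lower in KO than in WT (a mean difference of -0.58, two-sided exact permutation test within age, p = 0.04, with a smallest possible p of 0.005). As WT and KO overlapped at 8 weeks and lay apart at 25 weeks, this value describes neither age by itself. Permuting also within the interferon split gave p = 0.05 (exact), leaving out the 4 interferon-high libraries gave -0.79 with p = 0.1 (exact, where 20 arrangements allowed no p below 0.05, so that this test could not pass), and leaving out the acinar-rich libraries gave -0.47 with p = 0.15 (exact, 60 arrangements). Over all genotypes the log2 ratio was 0.54 higher at 25 than at 8 weeks (exact permutation test within genotype, p = 0.007, with a smallest possible p of 0.0005), and this passed in all 19 alternatives. KO ratios spanned 5.66 to 6.41 at both ages, so this value, pooled over genotypes, does not describe KO islets. WT ratios spanned 5.24 to 8.84 at 8 weeks and 11.97 to 14.3 at 25 weeks. HET ratios spanned 8.95 to 12.9 and 13.8 to 15.6. Whether the age difference differs between genotypes was not tested.

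**Figure D3:**
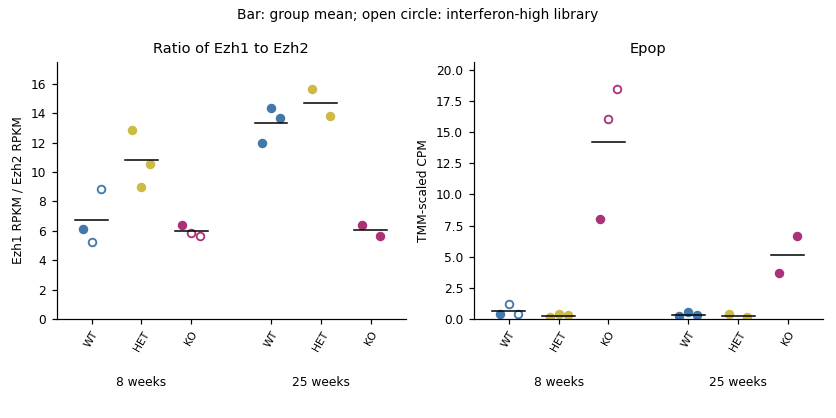
The left panel gives the ratio of Ezh1 to Ezh2 reads per kilobase and the right panel Epop in CPM (y axes), for each library by genotype and age (x axes), with bars at group means and open circles for interferon-high libraries. KO ratios at 25 weeks are 5.66 and 6.41, below WT at 11.97 to 14.3, and every KO library has more Epop than any WT or HET library.

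Rbbp4 and Rbbp7 encode related histone-binding WD40 proteins that PRC2 shares with the NuRD and Sin3 deacetylase complexes and with the chromatin assembly factor CAF-1. Rbbp4 (ENSMUSG00000057236.10, chromosome 4, 129307100 to 129335370) ranged from 97.3 to 130 CPM over the 16 libraries. Its log2 fold change between KO and WT was -0.03 at 8 weeks (SE 0.18, edgeR adjusted p = 0.991) and -0.13 at 25 weeks (SE 0.21, edgeR adjusted p = 0.788), the first of which turned positive (0.16) when libraries were scaled by size alone, as did the second (0.10). Rbbp7 (ENSMUSG00000031353.13, chromosome X, 162760402 to 162779092) had 118, 167 and 146 CPM in 8-week WT and 106, 118 and 153 CPM in KO. Later, at 25 weeks, Rbbp7 had 172, 119 and 109 CPM in WT, 109 and 116 CPM in HET, and 85.1 and 95.6 CPM in KO. The 25-week KO libraries were the lowest of all 16, with a log2 fold change of -0.62 (SE 0.28, edgeR adjusted p = 0.255) that did not pass the test. At 8 weeks the value was -0.20 (SE 0.25, edgeR adjusted p = 0.938).

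The Polycomb-like genes encode proteins that help recruit PRC2 to CpG-rich DNA and bind methylated H3K36. Phf1 (ENSMUSG00000024193.7, chromosome 17, 26933052 to 26937908) was the most abundant of them, with 106, 66.7 and 83.5 CPM in 8-week WT, 147, 128 and 139 CPM in HET and 108, 72.8 and 80.3 CPM in KO. In the older islets Phf1 had 102, 141 and 154 CPM in WT, 147 and 162 CPM in HET, and 76.9 and 75.6 CPM in KO. HET libraries were above all WT libraries at 8 weeks, and KO libraries were below all others at 25 weeks. Between KO and WT the log2 fold change was 0.03 at 8 weeks (SE 0.23, edgeR adjusted p = 0.993) and -0.85 at 25 weeks (SE 0.27, edgeR adjusted p = 0.0953). The difference between these ages was -0.88 (edgeR unadjusted p = 0.0313, adjusted p = 0.561) and did not pass. Of the 10 genes 0 were called in that comparison by edgeR, DESeq2 called 0 of them and 340 of all genes, 1 had an unadjusted p under 0.05 against 7.76% of all genes, and edgeR called 0.198% of all genes.

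Mtf2 (ENSMUSG00000029267.17, chromosome 5, 108065674 to 108109004) ranged from 15.2 to 27.0 CPM and did not pass between KO and WT at 8 weeks (log2 fold change -0.28, SE 0.21, edgeR adjusted p = 0.843) or at 25 weeks (0.23, SE 0.24, edgeR adjusted p = 0.652). Phf19 (ENSMUSG00000026873.9, chromosome 2, 34893757 to 34914026), the gene with the most bivalent chromatin around its start, had the lowest level. It had 1.84, 2.09 and 1.960 CPM in 8-week WT, 1.39, 1.33 and 1.10 CPM in HET and 1.57, 2.06 and 1.47 CPM in KO. In the older islets Phf19 had 1.09, 0.903 and 1.55 CPM in WT, 1.04 and 1.87 CPM in HET, and 1.75 and 3.07 CPM in KO. KO was above WT at 25 weeks, but a HET library lay above the lower KO one. The log2 fold change was -0.21 at 8 weeks (SE 0.41, edgeR adjusted p = 0.964) and 0.97 at 25 weeks (SE 0.46, edgeR adjusted p = 0.276). These rest on 5 to 76 reads per library, and neither passed the test.

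Jarid2 (ENSMUSG00000038518.15, chromosome 13, 44729474 to 44921643) encodes a DNA-binding cofactor without demethylase activity. It had 26.1, 20.4 and 18.7 CPM in 8-week WT, 33.2, 31.2 and 27.3 CPM in HET and 31.6, 29.4 and 19.4 CPM in KO. The 25-week levels were 27.7, 39.1 and 36.5 CPM in WT, 35.2 and 36.9 CPM in HET, and 29.2 and 44.2 CPM in KO. KO and WT overlapped at both ages, with log2 fold changes of 0.31 (SE 0.25, edgeR adjusted p = 0.860) and 0.03 (SE 0.28, edgeR adjusted p = 0.968).

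**Figure D4:**
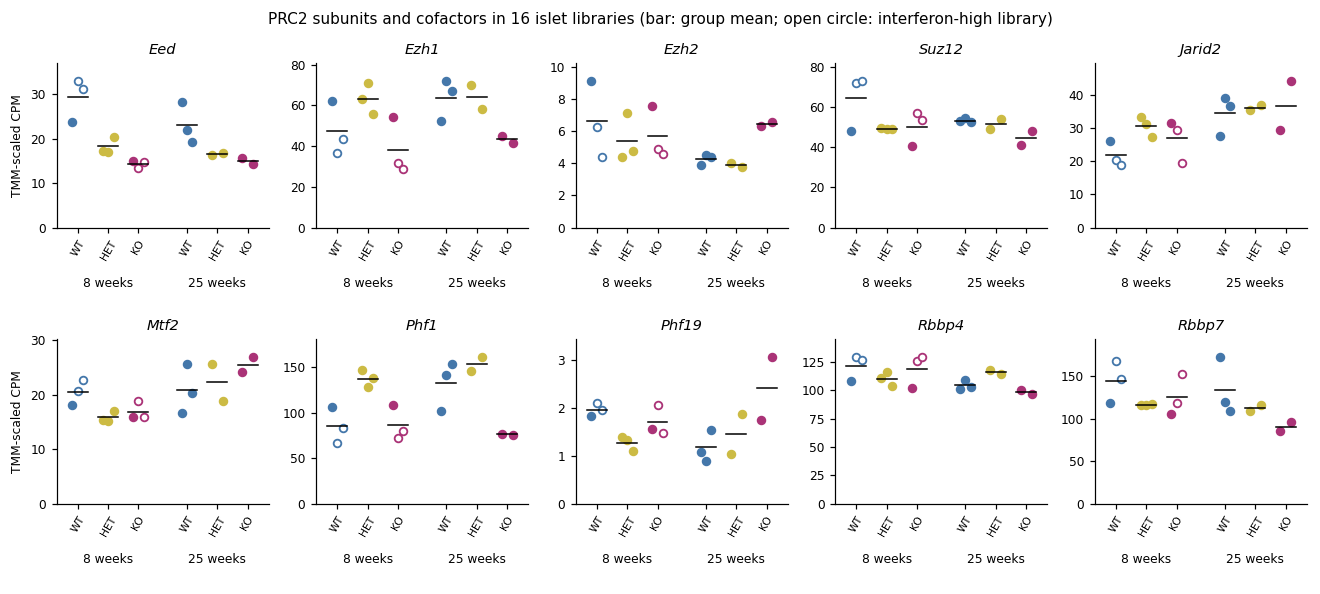
Each panel gives 1 gene's level in TMM-scaled CPM (y axis, from 0) in the 16 libraries by genotype and age (x axis), with bars at group means and open circles for the 4 interferon-high libraries. Eed falls from WT through HET to KO at both ages, from 29.4 to 14.4 CPM at 8 weeks.

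Per kilobase of exon (RPKM), the order of levels in 8-week WT islets was Rbbp7 (49.4 ± 8.55, SD, n = 3), Phf1 (24.5 ± 5.68), Rbbp4 (13.9 ± 1.34), Suz12 (13.01 ± 2.87), Eed (7.68 ± 1.28), Ezh1 (6.37 ± 1.79), Mtf2 (3.61 ± 0.408), Jarid2 (2.24 ± 0.397), Ezh2 (0.989 ± 0.357) and Phf19 (0.390 ± 0.0252). Rbbp4 and Suz12 differed by less than the larger of their SDs, and so did Eed and Ezh1. The other neighbours were apart by more than the larger of their SDs. In 25-week KO islets Phf1 was at 21.9 ± 0.276 RPKM (n = 2), Eed at 3.90 ± 0.249, Ezh1 at 5.82 ± 0.345 and Ezh2 at 0.966 ± 0.0280 RPKM.

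HET islets were compared with WT islets, although it is not said whether HET mice carried Cre. At 8 weeks edgeR called none of the 10 genes and 0% of 18828 genes (0 genes, 2743 at an unadjusted p under 0.05), while DESeq2 called 1 of the 10, Eed, among 407 genes. Of the 10 genes 4 had an unadjusted p under 0.05, against 14.6% of all genes: Eed (log2 fold change -0.69, SE 0.18, edgeR adjusted p = 0.223), Phf1 (0.69, SE 0.21, edgeR adjusted p = 0.237), Jarid2 (0.49, SE 0.22, edgeR adjusted p = 0.333) and Suz12 (-0.39, SE 0.18, edgeR adjusted p = 0.333). The groups did not overlap for Jarid2 and Phf1, which were higher in HET, and for Eed, Mtf2, Phf19 and Rbbp7, which were lower, as for 19.3% of all genes. With the interferon-high libraries, all WT or KO, as a term in the fit, Phf1 was at 0.38 (edgeR adjusted p = 0.547), and without these libraries Suz12 was at 0.03. The Eed value spanned -0.88 to -0.385 over 24 alternatives. WT replicate 1, the only 8-week WT library that was not interferon-high, had 23.9 CPM of Eed, against 17.1 to 20.5 CPM in HET. At 25 weeks edgeR again called none of the 10 and 0% of all genes (0 genes, 210 at an unadjusted p under 0.05), and DESeq2 called none of the 10 and 3 of all genes. Eed had a log2 fold change of -0.47 (SE 0.21, edgeR unadjusted p = 0.0391, adjusted p = 1). Eed was lower and Rbbp4 higher in HET without overlap, as were 16% of all genes in one direction or the other.

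Phf1 fell in KO relative to HET islets at 25 weeks, to 0.494 times the HET level (log2 fold change -1.02, SE 0.26, edgeR adjusted p = 0.0294). It was the 1 member called there by edgeR, against 8.36% of all genes. Leaving out either HET or either KO library of that age ended the call, with log2 fold changes of -1.09 to -0.95 over the libraries left out in turn. Scaling by library size alone (-0.94), treating replicate numbers as pairs (-1.19) and leaving out the acinar-rich libraries (-1.11) also ended it. Ezh2 was higher and Eed, Ezh1, Suz12, Phf1, Rbbp4 and Rbbp7 lower in KO without overlap, in a comparison of 2 with 2 libraries in which 61.8% of all genes did not overlap. Ezh1 had a log2 fold change of -0.57 (SE 0.31, edgeR adjusted p = 0.279) and Eed -0.16 (SE 0.22, edgeR adjusted p = 0.722).

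At 8 weeks edgeR called none of the 10 genes between KO and HET, 2 had an unadjusted p under 0.05 and DESeq2 called 1, Phf1. Of all genes edgeR called 4.74%, 25% had an unadjusted p under 0.05 and DESeq2 called 2303. Phf1 had a log2 fold change of -0.66 (SE 0.21, edgeR adjusted p = 0.0832), Ezh1 -0.72 (SE 0.25, edgeR adjusted p = 0.105) and Eed -0.35 (SE 0.18, edgeR adjusted p = 0.252). With the interferon-high libraries as a term, Phf1 was at -0.35 (edgeR adjusted p = 0.315) and Ezh1 at -0.29 (edgeR adjusted p = 0.389). Phf19 was higher and Eed, Ezh1 and Phf1 lower in KO without overlap, as were 27.2% of all genes in one direction or the other.

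No member was called between ages within WT or KO islets. Interferon-high libraries occurred at 8 weeks alone, in both WT and KO, so age and the interferon split cannot be told apart here. In WT islets edgeR called 0% of all genes between 25 and 8 weeks (0 genes, 1898 at an unadjusted p under 0.05) and none of the 10, of which 2 had an unadjusted p under 0.05, against 10.2% of all genes. These were Jarid2 (log2 fold change 0.68, SE 0.25, edgeR adjusted p = 0.489) and Phf1 (0.64, SE 0.24, edgeR adjusted p = 0.489), both higher at 25 weeks. Over 19 alternatives the values spanned 0.46 to 0.81 for Jarid2 and 0.36 to 0.80 for Phf1. In KO islets edgeR called 1.5% of all genes and none of the 10, and 1 had an unadjusted p under 0.05, Mtf2 (0.54, SE 0.23, edgeR adjusted p = 0.335), against 14.1% of all genes. DESeq2 called none of the 10 in either, and 139 and 960 of all genes.

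Several of the 10 genes moved with the interferon split among the 9 libraries of 8-week islets. The 4 interferon-high libraries were WT or KO, and the other 5 held every HET library of that age, with WT replicate 1 and KO replicate 1. The split and the HET genotype thus cannot be fully told apart. Ezh1 was lower in the 4 interferon-high libraries (28.9 to 43.3 CPM) than in the other 5 (54.2 to 70.8 CPM), and Phf1 was also lower (66.7 to 83.5 against 106 to 147 CPM). Suz12 was higher (53.3 to 73.0 against 40.6 to 49.6 CPM), as was Rbbp4 (126 to 130 against 102 to 116 CPM). Rbbp7 was barely higher, with ranges that nearly touched (117.92 to 167 against 106 to 117.86 CPM). That made 5 of 10 genes without overlap, against 28% of 18828 genes. These sets were defined from the libraries and not by the study, so no test is given.

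Among pairs of the 10 genes, Ezh1 and Phf1 varied most alike across the 16 libraries (Pearson correlation of log2 CPM 0.86, and 0.79 within groups). The genes most like Eed among 18827 others were Aktip (0.906), Zhx1 (0.876), Rnf168 (0.864), Slc4a1ap (0.845) and Mphosph8 (0.843), and the most opposite were Sema6b (-0.93), Shisa8 (-0.84) and Tspear (-0.83). Those most like Ezh2 were Sptssb (0.808), Pdgfc (0.807), Wfdc18 (0.805), Acot1 (0.803) and Asb2 (0.802), and the most opposite were Prmt6 (-0.77), Fbxl14 (-0.77) and Siah1b (-0.74). These correlations describe libraries that share genotype, age and tissue make-up, and carry no test.

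Of 6 further PRC2 partners on a list, 4 were tested (Aebp2, Lcor, Lcorl and Epop), and 1 rose in KO islets at each age: Epop, which encodes a partner that links PRC2 to elongin. Epop (ENSMUSG00000043439.5, chromosome 11), with its start in bivalent state L and state M the most frequent over its body, had 0.381, 1.22 and 0.424 CPM in 8-week WT, 0.139, 0.399 and 0.275 CPM in HET, and 8.07, 16.0 and 18.4 CPM in KO. At 25 weeks it had 0.218, 0.527 and 0.309 CPM in WT, 0.381 and 0.117 CPM in HET, and 3.65 and 6.66 CPM in KO. Every KO library was above every WT and HET library, which held 1 to 21 reads each. The log2 fold change between KO and WT was 4.37 at 8 weeks (SE 0.59, edgeR adjusted p = 0.0109), 3.70 at 25 weeks (SE 0.64, edgeR adjusted p = 0.00781) and 4.04 over both (SE 0.43, edgeR adjusted p = 0.000604). The 8-week call was lost with replicate numbers as pairs (4.82, edgeR adjusted p = 0.103), without 8-week WT replicate 4 (edgeR adjusted p = 0.0840), without the acinar-rich libraries (4.37, edgeR adjusted p = 0.0539) and without the interferon-high libraries (4.39, edgeR adjusted p = 0.844). That last omission left 1 WT and 1 KO library at 8 weeks, and edgeR then called 0 of 19851 genes (735 at an unadjusted p under 0.05), so it says nothing particular to Epop. The 25-week call was lost without 25-week KO replicate 3 (edgeR adjusted p = 0.0644) and without the acinar-rich libraries (edgeR adjusted p = 0.103), and the call over both ages passed under all 21 alternatives.

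PRC1, the complex that ubiquitinates histone H2A and reads H3K27me3, had 0 of 19 genes called by edgeR or DESeq2 at 8 weeks, with 3 at an unadjusted p under 0.05. At 25 weeks 4 of the 19 were below an unadjusted 0.05, against 20.3% of all genes, and 1 was called, against 6.6% of all genes. It fell: Kdm2b, whose protein brings a PRC1 form to CpG islands, with a log2 fold change of -1.25 (SE 0.32, edgeR adjusted p = 0.0432). Its mean level was 47.1 ± 12.3 CPM (SD, n = 3) in WT, 50.5 ± 0.702 CPM (n = 2) in HET and 20.6 ± 1.03 CPM (n = 2) in KO islets. This call was lost in 11 of 21 alternatives, among them scaling by library size alone and the fit with pairs (-1.18, edgeR adjusted p = 0.0523). Of the H3K27 demethylases Kdm6a and Kdm6b, edgeR and DESeq2 called 0 of 2 at either age, with 0 below an unadjusted 0.05. Of 14 genes of NuRD, Sin3 and CAF-1, which share Rbbp4 and Rbbp7, edgeR called 0 at either age, with 0 at 8 weeks and 2 at 25 weeks at an unadjusted p under 0.05, DESeq2 called 0 and 1, and the fit with pairs called 1 at 25 weeks.

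Proliferation genes were listed beside Ezh2, which dividing cells express. Of 18, edgeR and DESeq2 called 0 at 8 weeks, with 0 at an unadjusted p under 0.05, 14 negative values and a median of -0.45. At 25 weeks 1 of 18 was called, against 6.6% of all genes: Mcm3, a subunit of the replicative helicase, which rose (log2 fold change 1.42, SE 0.37, edgeR adjusted p = 0.0457). Positive values were seen for 16 of 18, with a median of 1.05, against 51.7% of all genes. Of the 18, 8 had an unadjusted p under 0.05, against 20.3% of all genes. From 8 to 25 weeks all 18 had negative values in WT islets (median -1.33). Of these 10 had an unadjusted edgeR p under 0.05, against 10.2% of all genes. In KO islets 12 were negative (median -0.25) and 3 had such a p, against 14.1%. The 25-week difference thus went with lower levels in older WT islets. In sum the 18 were at 90.6 and 146 CPM in 25-week KO, 74.1 to 83.6 CPM in WT and 82.6 and 99.9 CPM in HET. Mcm3 was at 1.98 ± 0.181 CPM (SD, n = 3) in WT and 5.53 ± 0.287 CPM (n = 2) in KO, and the call was lost in 13 of 21 alternatives, among them the fit with pairs (1.498, edgeR adjusted p = 0.130). Over both ages 1 of 18 was called, against 7.62% of all genes: E2f1, a transcription factor of the cell cycle, which fell (-1.09, SE 0.27, edgeR adjusted p = 0.0358). That call was lost in 12 of 21 alternatives, among them the fit with pairs (-1.05, edgeR adjusted p = 0.0776). Markers of some other cell types were also higher in 25-week KO than in WT islets, in a comparison where 6.6% of all genes were called. All 7 leukocyte markers had positive values (median 1.31, 1 called), with a summed level of 157 to 446 CPM in KO and 93.2 to 180 CPM in WT. Of 6 duct markers 5 were positive (median 2.58, 3 called), at 569 to 696 against 229 to 299 CPM in sum, and of 6 mesenchymal markers all were (median 1.67, 4 called), at 235 to 345 against 84.3 to 117 CPM. Acinar (median 0.80, 0 called), alpha cell (0.44, 1 called), endothelial (0.43, 0 called) and delta cell markers (0.04, 0 called) moved less. At 8 weeks all 7 leukocyte (median 1.04) and all 6 mesenchymal markers (1.42) were already positive, with 0 called. Of 6 duct markers 4 were (0.24). The mesenchymal markers start in Polycomb states M or N, so more such cells cannot be told apart from expression in other islet cells. The part of these marker lists in the 25-week values of Ezh2 and of the proliferation genes was not tested.

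Of 8 genes listed as known Polycomb targets, 1 was called higher in KO islets at 8 weeks, against 0.434% of all genes called. At 25 weeks 6 were called higher, against 6.6% of all genes called. The list was chosen with earlier results of these data known, and Cdkn1a on it had its start and body in quiescent state X. The first was Cdkn2a, a cell cycle inhibitor gene with its start in active state B and state M the most frequent over its body. Cdkn2a was at 0.303 ± 0.105 CPM (SD, n = 3) in WT and 11.1 ± 2.32 CPM (n = 3) in KO islets at 8 weeks (log2 fold change 5.14, SE 0.41, edgeR adjusted p = 0.000646). It was among the 6 at 25 weeks, with Hoxa9, Hoxd13, Pax3, Sox1 and Gata6, which encode transcription factors of development. The 25-week count spanned 1 to 7 over the alternatives, with 1 when the acinar-rich libraries were left out, and 4 to 7 when libraries were left out in turn. The 8-week call of Cdkn2a was lost without the interferon-high libraries (5.46), where 0 genes of all were called, and with replicate numbers as pairs (4.83, edgeR adjusted p = 0.113).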

How the data were processed

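Islet mRNA had been sequenced from an Illumina TruSeq RNA v2 kit. Per gene, raw counts of reads were deposited by the authors. They came from TopHat2 2.0.13 on GRCm38 and featureCounts (Subread 1.5.0-p1) on GENCODE models. Whether counting used strand is not given in the sources used here, so reads shared with antisense genes or pseudogenes cannot be told apart. The authors deposited the chromatin states as EpicSeg state letters (unit other, no level) for 200 bp bins of wild-type islets, replicates combined. A barcode table, single-cell data and ChIP-seq signal were not used here.

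The tests ran in edgeR 4.0.16 and, as an alternative, DESeq2 1.42.0, under R 4.3.3 with limma 3.58.1. Counts were TMM-scaled and filtered by filterByExpr (minimum count 10), leaving 18685 genes in the 11 WT and KO libraries and 18828 in all 16. KO and WT were compared in 1 fit of 4 groups, and comparisons with HET came from 1 fit of 6. Genes with a quasi-likelihood test p under 0.05 after Benjamini-Hochberg adjustment over all genes tested were called. The standard error is the log2 fold change over the root of F. Log2 CPM used a prior count of 2, and RPKM used the summed exon length of each gene. Genes named besides the 10 members are listed genes past the threshold, and for Eed and Ezh2 the 5 most like and 3 most opposite. The members and lists were chosen with earlier results of these data known.

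Chi-square per degree of freedom between replicates was 31.0 to 592, far above sampling noise, so each library was counted as 1 replicate. Replicate numbers are not said to mark pairs. The deviations of the 4 same-numbered WT and KO pairs correlated at 0.16 to 0.46, all over 0.1. The fit with replicate number as a block is therefore given beside KO and WT results whose call it changes. At 8 weeks only numbers 1 and 4 occurred in both WT and KO, so the paired difference rested on those libraries. At 25 weeks only numbers 2 and 3 did. In lost calls, an effect of pairing cannot be told apart from the use of fewer libraries. Same-numbered 8-week libraries also lay on the same side of the interferon split, and WT replicate 3 and KO replicate 5 correlated at 0.45. The 5 pairs with HET correlated at -0.02 to 0.16, and pairs of WT and KO with other numbers at -0.53 to 0.45. The scripts were tested on simulated data. Alternatives covered scaling, filter, prior count, test, control, block and libraries.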

Additional observations from a re-analysis of the deposited data

How the results depend on the processing

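Of 48 log2 fold changes, 41 kept their direction in every alternative. Of 1035 alternative values 16 were reversed, 68 lost and 16 gained a call, and the cause was not tested. Alternatives on the interferon-high and acinar-rich libraries were chosen after seeing the data. In members called, KO minus WT went from 0 to 1 at 8 weeks with DESeq2, with all 16 libraries in 1 fit and with the interferon term. At 25 weeks it went from 0 to 1 with DESeq2 and 2 with that term. Over both ages it went from 1 to 0 with library size alone and without the interferon-high or acinar-rich libraries, to 3 with WT and HET pooled or the interferon term, and spanned 0 to 2 when libraries were left out in turn (0 without 25-week KO replicate 3, 2 without 8-week KO replicate 1). HET minus WT at 8 weeks went from 0 to 1 with DESeq2 and spanned 0 to 1 (Eed -0.88, edgeR adjusted p = 0.0358, without WT replicate 1). KO minus HET went from 0 to 1 at 8 weeks with DESeq2 and spanned 0 to 2 (2 without KO replicate 1). At 25 weeks it went from 1 to 0 with library size alone, the replicate block or no acinar-rich libraries, to 2 with the interferon term, and spanned 0 to 1. The log2 ratio of Ezh1 to Ezh2 between KO and WT, pooled over both ages, spanned -0.72 to -0.44, losing its exact call without 8 of 11 libraries in turn (8-week WT replicate 4, KO replicates 4 and 5, and each 25-week library). It was -0.58 (p = 0.05, exact) permuted within the interferon split, -0.79 without interferon-high libraries (20 arrangements, no p below 0.05 possible) and -0.47 without acinar-rich libraries.

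Reversed at 8 weeks, KO minus WT, were Ezh2 (0.0268, library size alone), Phf1 (-0.0831 with the replicate block, -0.36 with WT and HET pooled), Phf19 (0.0694, pooled) and Rbbp4 (0.16, library size alone, and 0.0393, pooled). Rbbp4 at 25 weeks (0.10, library size alone) and Suz12, HET minus WT at 8 weeks (0.0349, without interferon-high libraries), also reversed. Without libraries in turn the 8-week values spanned -0.47 to 0.0658 for Ezh2, -0.15 to 0.19 for Phf1 and -0.13 to 0.0817 for Rbbp4, and Jarid2 at 25 weeks spanned -0.29 to 0.28. With library size alone the median of all genes was 0.20 at 8 weeks and 0.27 at 25 weeks, against 0.00 and 0.03.

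With the replicate block, which treats numbers as pairs, Eed over both ages was -0.87 (edgeR adjusted p = 0.0498). At 8 weeks, where only numbers 1 and 4 occurred in both WT and KO, called genes went from 81 to 0. Over both ages they went from 1424 to 817 with the block. It ended the calls of Epop and Cdkn2a at 8 weeks, Kdm2b and Mcm3 at 25 weeks and E2f1 over both, and no other KO and WT call of the 10 genes, Epop or Cdkn2a, and 6 Polycomb targets were called at 25 weeks. For KO minus HET it went from 892 to 1 at 8 weeks and from 1574 to 429 at 25 weeks. The block could not be fitted for the age comparisons. DESeq2 called 393, 2093 and 2403 genes at 8 weeks, 25 weeks and over both, against 81, 1234 and 1424, 340 against 37 for the difference between ages, 139 against 0 and 960 against 281 for age in WT and KO, 407 and 3 against 0 for HET minus WT, and 2303 and 2696 against 892 and 1574 for KO minus HET. Without libraries in turn, the 8-week, 25-week and combined KO minus WT counts spanned 18 to 135, 392 to 1609 and 665 to 2119, and KO minus HET spanned 143 to 4014 at 8 weeks and 302 to 2123 at 25 weeks. The interferon term gave 183, 2532 and 2951, pooling WT and HET 503, 2649 and 3666, and the acinar-rich libraries left out 23, 95 and 345. With library size alone 805 of 884 called genes were higher in KO at 25 weeks, against 856 of 1234. Counts of 5 to 163 reads limit Ezh2 and Phf19.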
